A study of Rattus norvegicus with 12 samples.

Results

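Bladders of old rats that had lived on restricted food were compared with bladders of young rats that ate freely, to describe how far the tissue of a restricted old animal differs from that of a young one. The comparison used 8 of the 12 arrays of the series, chosen by their labels: 4 arrays of old restricted animals and 4 of young freely fed animals. All 12 rats were male Fischer 344 rats, an inbred strain much used in ageing research, and RNA came from the bladder body, with 1 animal on each array. Young rats were 6 months old and had free access to food. Old restricted rats were 25 to 28 months old and had received food on 3 days of each week since they were 6 weeks old, a restriction of about 40% by the study's description. The remaining 4 arrays held old freely fed rats of 25 to 28 months, whose values are given beside those of the comparison for many of the genes. No group held young restricted rats, so age and feeding both differ between the compared groups.

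The bladder wall is a layer of smooth muscle, the detrusor, lined by a watertight epithelium, the urothelium, and supplied by motor and sensory nerves. Detrusor contraction is driven mainly by acetylcholine acting on muscarinic receptors and by calcium released inside the muscle cell. Feeding schedules are known to reset the circadian clock of peripheral organs, a loop in which the activators Bmal1 and Npas2 or Clock switch on genes, among them Per, Nr1d and Ciart, whose proteins then repress the activators. Sterol and fatty acid synthesis genes are switched on together by the SREBP transcription factors when cell sterols are low.

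A level is the log2 of a probe's processed signal with the array's 75th percentile subtracted, so that a level of 0 is the signal at that percentile, and a difference of 1 is a 2-fold change. Where 4 values are given for a group, they are those of replicates 1 to 4. Young arrays had 21659 to 22294 of 30367 probes well above background, and restricted arrays had 22566 to 23200. The young arrays filled 1 row of a slide, whose other row held the freely fed old arrays under the same scan, while the restricted arrays were on another slide with a scan of its own. Slide, scan and group therefore cannot be told apart where restricted rats are compared with young or with freely fed old rats, and a gene at which restricted rats stand apart from both follows the slide as well as the group. Of 10 spike-in control RNAs, 8 were well above background on all 12 arrays, with mean young levels from -5.898 to 6.713. Their restricted minus young difference lay between -0.119 and -0.037. The dimmer spike-ins, well above background on no array, differed by -0.229 and -0.369, so genes dimmer than this range are not covered. Restricted replicate 3 stood apart on the first principal component (25.3% of the variance), at 19 against -7.32 to 1.74 for the other restricted animals and -29 to -20.4 for young animals. Markers of urothelium and of smooth muscle were present on all 8 arrays: the uroplakins Upk1a, Upk1b, Upk2 and Upk3a, which coat the urothelium, and the smooth muscle genes Actg2, Myh11 and Des were well above background on each.

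**Figure D1:**
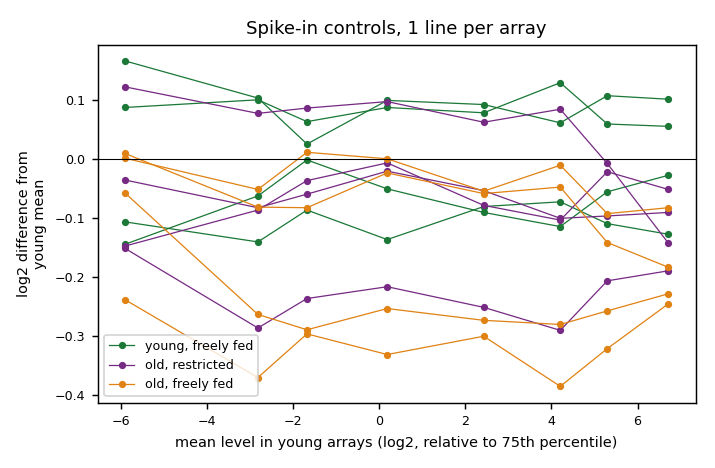
Spike-in control RNAs. Each line is 1 array and joins the 8 spike-ins that were well above background on all 12 arrays, with the mean level in young arrays on the x axis (log2, relative to the 75th percentile) and the difference from that mean on the y axis (log2). Lines run nearly flat, and the 4 restricted arrays lie within and just below the spread of the 4 young arrays.

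Of 20425 genes tested (limma, moderated tests on all 12 arrays, Benjamini-Hochberg adjusted p under 0.05), 651 (3.19%) were higher and 1223 (5.99%) were lower in restricted old than in young bladders, together 9.18%. Most changes were small. The median fold change of called genes was 1.35 for those higher and 1.37 for those lower, and 73 genes rose and 113 fell by 2-fold or more. The 4 restricted animals all lay above the 4 young animals for 1463 genes (7.16%) and all below them for 2205 genes (10.8%). Of the 1874 called genes, 1758 had groups that did not overlap, so a lack of overlap adds little to a call. The largest rises and falls named below were picked among those genes. Beside the restricted against young counts, the fit called 332 genes higher (1.63%) and 428 lower (2.1%) in old freely fed against young rats, and 331 higher (1.62%) and 413 lower (2.02%), together 3.64%, in restricted against freely fed old rats. These comparisons share arrays with each other, so their values are set side by side and no overlap of genes is drawn from them. The arrays are bulk tissue, in which fewer cells of a type and less RNA per cell cannot be told apart.

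The balance of higher to lower calls moved with the scaling. Higher calls were 34.7% of all calls as reported, 48.4% with quantile scaling, 45.5% with normexp and quantile scaling, 24% without a filter on dim probes, and 63.8% when arrays were scaled on the spike-ins, which called 293 genes higher and 166 lower. The spike-in scaling was added after the spike-in values were seen. Normexp, another background correction, shrank the differences of 26 of 121 named genes by more than 1.5 times, among them Cldn3 (2.90 as reported, 0.80 with normexp), Ciart (2.67 and 1.57) and Tff2 (2.08 and 0.82). Counts were lowest without restricted replicate 3 (278 higher, 459 lower) and restricted replicate 2 (313 and 556), and were also moved by more than 1.5 times without young replicate 1 (393 and 657), young replicate 2 (368 and 722) and, for higher genes, restricted replicate 1 (382).

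**Figure D2:**
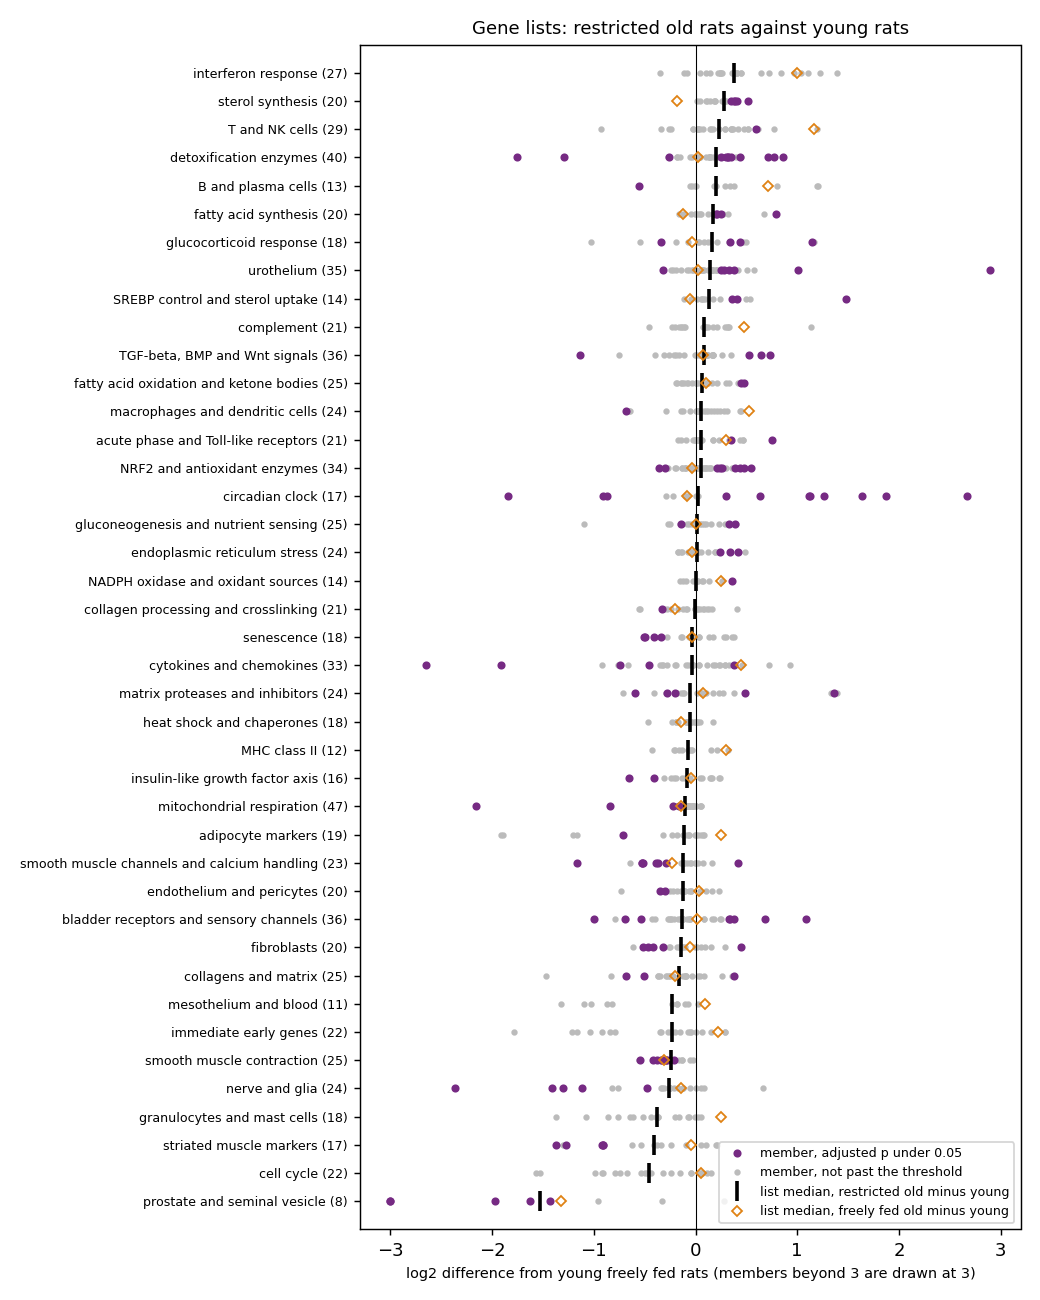
Gene lists ordered by their median. Each row is 1 list with its number of tested members, the x axis is the log2 difference of restricted old minus young rats, purple points are members past the threshold, grey points are the other members, the black bar is the list median and the open diamond is the median of the same list in old freely fed minus young rats. The clock list spans both sides of 0 with its largest members purple, all sterol synthesis members lie to the right of 0, and all smooth muscle contraction members lie to its left.

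The circadian clock genes had the largest share of called members of any list. Of 17 measured members, 8 were higher and 3 were lower in restricted old than in young bladders (background 3.19% and 5.99% of all genes), and the list median was 0.02 because the members moved to both sides. In old freely fed against young rats 0 of the 17 passed the threshold in either direction (limma; also 0 higher and 0 lower at an unadjusted p below 0.05). Restricted against freely fed old rats gave 6 higher and 3 lower. The promoters of 4 rising members carried a motif of the clock within the 250 bases before their start, and they are shown because these are the sequences that clock proteins are known to read. The letters searched on both strands were CACGTG, the E-box bound by Bmal1 with its partners, and TTATGTAA, the D-box bound by Dbp, Tef and Nfil3. Sequences come from RefSeq (assembly GRCr8), with the motif in capitals and up to 60 bases on each side: Ciart from chr2:186112247-186112399, minus strand; Bhlhe40 from chr4:143174200-143174295, plus strand; Tef from chr7:115206577-115206694, plus strand; Per2 from chr9:99497118-99497243, minus strand.
Ciart: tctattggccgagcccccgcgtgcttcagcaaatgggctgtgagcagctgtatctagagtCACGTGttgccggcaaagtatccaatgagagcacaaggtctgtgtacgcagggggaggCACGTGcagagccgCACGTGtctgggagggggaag
Bhlhe40: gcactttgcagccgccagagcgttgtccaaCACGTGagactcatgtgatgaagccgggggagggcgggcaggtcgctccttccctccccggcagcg
Tef: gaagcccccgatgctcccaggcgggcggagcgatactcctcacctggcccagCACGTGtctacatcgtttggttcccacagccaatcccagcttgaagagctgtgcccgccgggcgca
Per2: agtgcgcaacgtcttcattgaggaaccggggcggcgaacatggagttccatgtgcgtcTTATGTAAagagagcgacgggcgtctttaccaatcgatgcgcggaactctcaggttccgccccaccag

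The E-box stood in 3 of the 15 clock genes that had a promoter in the table (20%), against 5.79% of all 27457 promoters of this length, and the D-box in 1 of 15 against 0.816%. The E-box also stood in 3 of 10 promoters of SREBP control and sterol uptake (30%), so it was not particular to clock genes. In sterol synthesis and in fatty acid synthesis it stood in 1 of 15 promoters each (6.67%). A match is a description of the letters and not a binding site, and this search was added after the clock values were seen.

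Among the activators, Bmal1, the obligate partner of the clock's positive arm, read 0.33, -0.03, -0.26 and -0.33 in young and -1.42, -1.39, -2.33 and -2.52 in restricted animals. Every restricted animal lay below every young one. The mean fell from -0.08 ± 0.3 to -1.92 ± 0.59 (SD, n = 4 each), a fall 3.58-fold in size (log2 difference -1.84 ± 0.25 SE, adjusted p = 0.0024), and a second Bmal1 probe gave -1.90. Npas2, which can replace Clock as the partner of Bmal1, fell by 0.91 (adjusted p = 0.0022) from -0.61, -0.66, -0.76 and -0.92 to -1.58, -1.58, -1.48 and -1.96, again without overlap. Clock itself differed by -0.22 and did not pass (adjusted p = 0.16). In old freely fed rats the difference from young was -0.11 for Bmal1 (adjusted p = 0.81) and -0.08 for Npas2 (adjusted p = 0.72).

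The repressors went the other way. Per2, a core repressor, read -2.71, -2.65, -2.90 and -2.47 in young and -1.68, -1.21, -0.86 and -0.41 in restricted animals, 3.12-fold higher (log2 difference 1.64 ± 0.23 SE, adjusted p = 0.003). Ciart, a repressor of the Bmal1 complex, rose from -7.67, -6.30, -5.62 and -5.32 to -3.71, -4.04, -3.60 and -2.89 (log2 difference 2.67 ± 0.44 SE, adjusted p = 0.0056), with 3 of 4 young arrays well above background. Both genes were higher in 4 of 4 restricted animals than in any young one, which the rule for naming the largest rises required. Nr1d1 and Nr1d2, nuclear receptors that repress Bmal1 transcription, rose by 1.26 (adjusted p = 0.049) and 1.12 (adjusted p = 0.014). For Nr1d1 the groups met, since young replicate 4 and restricted replicate 3 both read -1.28. Bhlhe40, another E-box repressor, rose by 0.63 (adjusted p = 0.023) and Per3 by 0.30 (adjusted p = 0.036), while Per1 differed by 0.02 and Cry1 by -0.29 without passing (adjusted p = 0.95 and 0.36).

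Output factors of the D-box split by their known action. Dbp, an activator, read 1.78, 2.39, 2.86 and 3.11 in young and 4.01, 4.16, 4.58 and 4.87 in restricted animals, 3.65-fold higher (log2 difference 1.87 ± 0.29 SE, adjusted p = 0.0042), and its other probes gave 1.95 and 2.01. Tef, a second activator, rose by 1.13 (adjusted p = 0.0058), and Nfil3, which represses the same sites, fell by 0.87 (adjusted p = 0.024). Against old freely fed rats, the restricted animals differed by -1.73 for Bmal1 (adjusted p = 0.0051), 1.90 for Per2 (adjusted p = 0.0025) and 1.95 for Dbp (adjusted p = 0.006). The time of day at which each animal was killed was not used here. The higher count fell from 8 to 5 without young replicate 1, 2 or 3 or restricted replicate 4. Nr1d1, Nr1d2, Bhlhe40, Per3, Tef and Nfil3 lie outside the naming rule and were named after their values were seen.

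**Figure D3:**
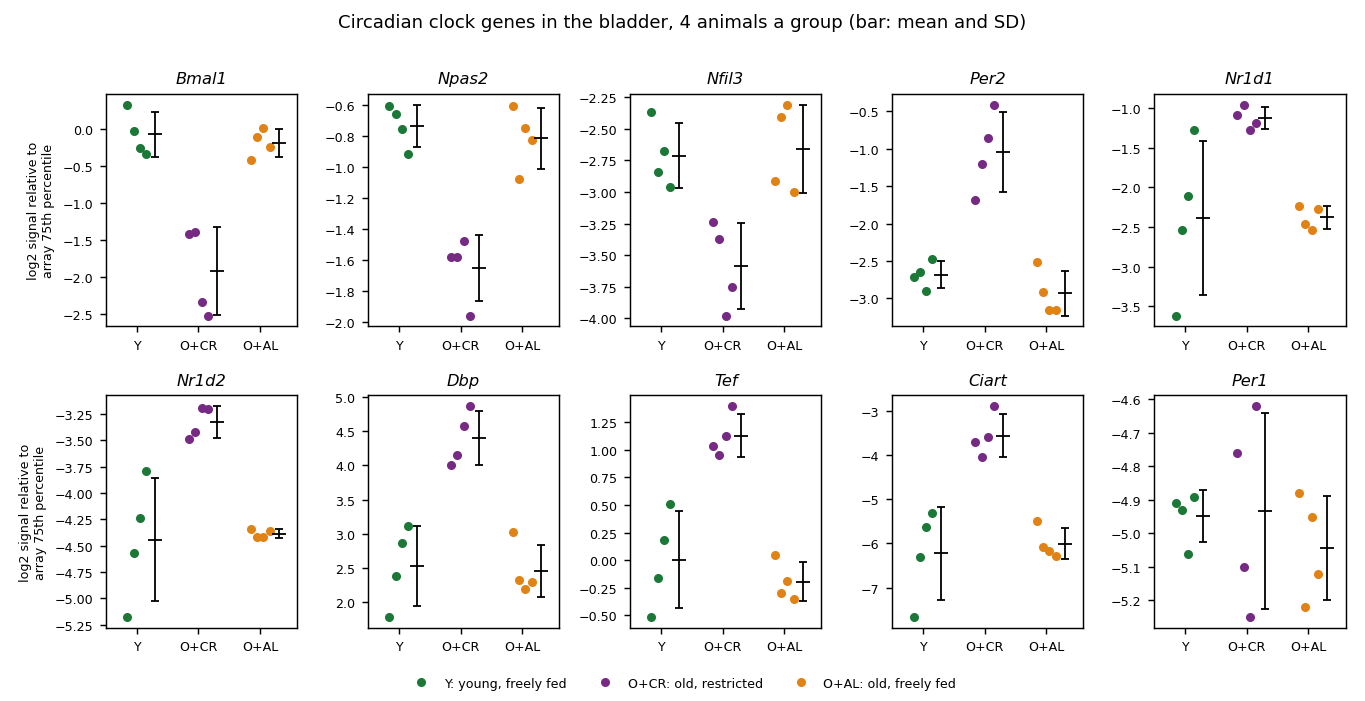
Clock genes by animal. The y axis is the level (log2, relative to the array's 75th percentile), each point is 1 of 4 animals a group, and the bar to the right of the points is the mean and SD. Restricted animals (purple) lie below both other groups for Bmal1, Npas2 and Nfil3 and above them for Per2, Nr1d2, Dbp, Tef and Ciart, while Per1 overlaps in all groups.

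Genes of sterol synthesis were shifted upward in restricted old bladders. All 20 measured members had a higher mean in restricted than in young rats, 5 of them past the threshold (adjusted p under 0.05, beside 3.19% of all genes), with a list median of 0.28 against -0.012 for all genes tested. The same list in old freely fed against young rats had a median of -0.18 with 0 called (limma; 0 higher and 7 lower unadjusted), and in restricted against freely fed old rats 13 of 20 were higher and 0 lower, with a median of 0.45. The 4 promoters printed below were picked from called lipid genes that held the CCAAT letters. These letters are the box bound by NF-Y, a factor known to act beside SREBP at sterol genes. The box, searched on both strands (so also read as ATTGG), stood in 12 of the 15 sterol synthesis promoters in the table (80%) and 10 of 15 fatty acid synthesis promoters (66.7%), against 34.3% of all promoters. It also stood in 9 of 15 clock promoters (60%) and in 4 of 10 promoters of SREBP control and sterol uptake (40%), so it was not particular to lipid synthesis. The consensus sterol regulatory element stood in 0 of these and in 0.0838% of all promoters, which says only that its exact letters are not in these windows. The sequences are from RefSeq (GRCr8), with the box in capitals and 30 bases on each side: Fdps from chr2:176804867-176804976, minus strand; Lss from chr20:12118278-12118342, minus strand; Mvd from chr19:67414975-67415039, minus strand; Scd2 from chr1:253118250-253118357, plus strand.
Fdps: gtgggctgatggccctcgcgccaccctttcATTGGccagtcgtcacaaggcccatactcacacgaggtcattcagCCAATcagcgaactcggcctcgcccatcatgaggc
Lss: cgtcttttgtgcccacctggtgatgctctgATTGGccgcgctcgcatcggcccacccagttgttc
Mvd: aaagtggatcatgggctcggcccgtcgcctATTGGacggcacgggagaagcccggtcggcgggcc
Scd2: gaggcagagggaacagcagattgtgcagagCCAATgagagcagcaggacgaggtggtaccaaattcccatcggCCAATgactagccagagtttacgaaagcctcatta

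The called enzymes lie at separate steps of the pathway. Dhcr7, the enzyme of the last step to cholesterol, rose from -1.40, -1.32, -1.36 and -1.66 to -0.90, -0.90, -0.96 and -0.90 (log2 difference 0.52 ± 0.08 SE, adjusted p = 0.0052). Mvd, which makes the isoprenoid unit, read -0.36, -0.37, -0.54 and -0.73 in young and -0.16, -0.05, -0.12 and -0.01 in restricted animals, 1.33-fold higher (log2 difference 0.41 ± 0.09 SE, adjusted p = 0.022). In neither gene did the groups overlap. Fdps, which joins those units, rose by 0.38 (adjusted p = 0.031), and Lss, which closes the sterol rings and was named after its values were seen, by 0.35 (adjusted p = 0.04). Members that did not pass lay between 0.01 for Fdft1 and 0.40 for Hsd17b7. Against old freely fed rats the restricted animals differed by 0.49 for Dhcr7 (adjusted p = 0.011), 0.61 for Mvd (adjusted p = 0.0071) and 0.74 for Fdps (adjusted p = 0.0035).

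Of 14 genes of SREBP control and sterol uptake, 3 were higher and 0 lower, beside 3.19% and 5.99% of all genes. Insig1, which holds SREBP in the endoplasmic reticulum and is itself an SREBP target, rose by 0.36 (adjusted p = 0.047), with young replicate 1 at -0.91 and restricted replicate 1 at -0.92. Abca1, a cholesterol exporter, rose by 0.41 (adjusted p = 0.019), and by 0.69 in old freely fed rats (adjusted p = 0.0069). The call of Insig1 ended when any of 8 of the 12 animals was left out in turn and with other settings. The count of 3 fell to 1 or 0 without young replicate 3 or 4 or restricted replicate 2, 3 or 4, with the block or without the brightness trend, and the Abca1 call ended without restricted replicate 3.

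Fatty acid synthesis had 4 of 20 members higher and 0 lower (beside 3.19% and 5.99% of all genes), with a median of 0.17. Scd2, a desaturase that makes oleate, read 1.61, 1.54, 1.58 and 1.67 in young and 2.24, 2.31, 2.34 and 2.66 in restricted animals, 1.73-fold higher (log2 difference 0.79 ± 0.10 SE, adjusted p = 0.0019). The gap between the groups was wider than the range within either. Fads1, a desaturase of polyunsaturated fat, the citrate carrier Slc25a1 and the acyltransferase Agpat2 rose by 0.20 to 0.25, and Fasn and Scd differed by 0.24 and 0.67 without passing (adjusted p = 0.18 and 0.59). In old freely fed against young rats Scd2 differed by 0.06 (adjusted p = 0.74). The sterol count of 5 fell to 2 without restricted replicate 2, 3 or 4, to 3 without young replicate 3 or 4 and to 1 with spike-in scaling, where Dhcr7 alone of the named sterol genes passed. The fatty acid count of 4 fell to 1 without restricted replicate 2 or 3 and with spike-in scaling, and to 2 without restricted replicate 4 or young replicate 1 or 4.

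**Figure D4:**
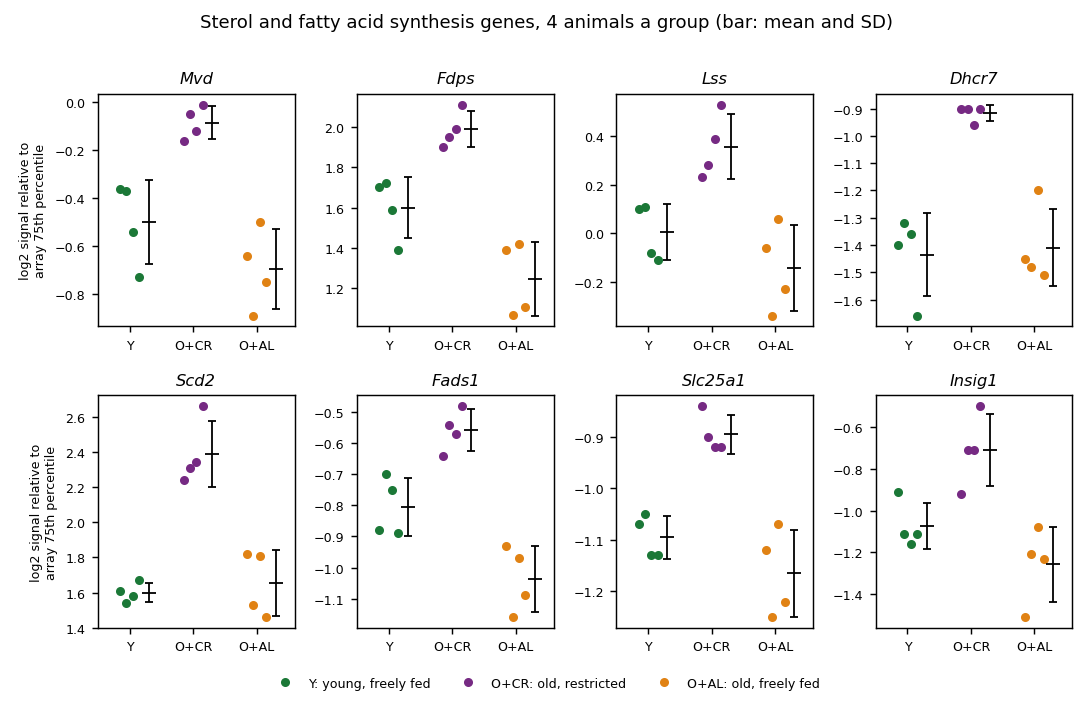
Lipid synthesis genes by animal. The y axis is the level (log2, relative to the array's 75th percentile), each point is 1 of 4 animals a group, and the bar is the mean and SD. The restricted animals (purple) lie above the young (green) in each panel, except that restricted replicate 1 is at -0.92 for Insig1 against -0.91 for young replicate 1, and above the freely fed old animals (orange) throughout.

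Contractile genes were lower. All 25 measured smooth muscle contraction genes had a lower mean in restricted old than in young bladders, 9 of them past the threshold (beside 5.99% of all genes), with a median of -0.24. The same 25 genes gave 9 lower and a median of -0.31 in old freely fed against young rats, and 0 called in either direction between the old groups (limma; 1 higher and 0 lower unadjusted, median 0.03). Myl9, the regulatory light chain whose phosphorylation starts contraction, read 6.17, 6.34, 6.23 and 6.21 in young and 5.94, 5.85, 5.74 and 5.89 in restricted animals, 1.3-fold lower (log2 difference -0.38 ± 0.09 SE, adjusted p = 0.023). Pdlim7, a scaffold of the actin cytoskeleton, fell by 0.55 (adjusted p = 0.009), and Synm, an intermediate filament protein, by 0.30 (adjusted p = 0.019). In each of the 3 the groups did not overlap. Ppp1r12a, the targeting subunit of myosin phosphatase, fell by 0.29 (adjusted p = 0.025). Acta2, Actg2 and Myh11, the main smooth muscle actins and myosin, differed by -0.28, -0.13 and -0.16 and did not pass (adjusted p = 0.13, 0.26 and 0.084). The summed level of the 6 smooth muscle markers, as multiples of the 75th percentile, was 357 to 380 in young and 287 to 340 in restricted animals. The count of 9 fell to 5 with quantile scaling, median centring or normexp, to 1 with normexp and quantile scaling, to 0 with spike-in scaling (list median -0.16 to -0.28 over the settings), and to 1 without young replicate 2 or restricted replicate 3, 3 without young replicate 1 and 4 without restricted replicate 2.

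Channels and calcium handling had 7 of 23 members lower and 1 higher, beside 5.99% and 3.19% of all genes. Casq2, the calcium store protein of the sarcoplasmic reticulum, showed the largest change, from 1.52, 1.33, 1.55 and 1.23 in young to 0.25, 0.41, 0.08 and 0.22 in restricted animals, 2.25-fold lower (log2 difference -1.17 ± 0.13 SE, adjusted p = 0.0012). Every restricted animal lay far below every young one. In old freely fed rats the difference from young was -0.52 (adjusted p = 0.051), and restricted lay 0.65 below freely fed old rats on the log2 scale (difference -0.65, adjusted p = 0.024). Atp2a2, the pump that refills the store, fell by 0.53 (adjusted p = 0.011), although a second probe gave -0.17 (adjusted p = 0.11). Kcnma1, the large calcium-activated potassium channel, fell by 0.37 (adjusted p = 0.018), and by 0.37 in old freely fed rats too (adjusted p = 0.034). Ano1, a calcium-activated chloride channel, rose by 0.42 (adjusted p = 0.02), with 0.19 from its dimmer probe (adjusted p = 0.37). Its call ended without restricted replicate 3. The count of 7 fell to 3 without young replicate 1 or restricted replicate 3, to 4 without young replicate 3 or restricted replicate 1 or 2, to 4 with median centring or with normexp and quantile scaling, and to 1 with spike-in scaling, where Casq2 passed.

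Markers of striated muscle, which the urethral sphincter and skeletal muscle hold, were lower for 5 of 17 members and higher for 0 (median -0.41), beside 5.99% and 3.19% of all genes. Tnnc2, fast troponin C, read 5.06, 5.04, 5.24 and 4.19 in young and 3.38, 3.59, 3.36 and 3.71 in restricted animals (log2 difference -1.37 ± 0.27 SE, adjusted p = 0.013). Tnnt3, fast troponin T, fell by 0.91 (adjusted p = 0.014), and Casq1 and Acta1, the store protein and actin of skeletal muscle, by 0.91 and 1.27 (adjusted p = 0.023 and 0.033). In freely fed old against young rats the list median was -0.04, but these named genes were lower there too. The differences were -1.18 for Tnnc2 (adjusted p = 0.04), -1.01 for Acta1 (adjusted p = 0.088), -0.53 for Casq1 (adjusted p = 0.15) and -0.47 for Tnnt3 (adjusted p = 0.14). Between the old groups they differed by -0.44 to -0.19 without passing (adjusted p = 0.2 to 0.73). The summed level of 5 striated markers was 3.72 to 4.53 in young and 2.39 to 2.84 in restricted animals, and 2.35 to 3.47 in old freely fed animals. Ckm, the brightest of the 5, weighs most in this sum and differed by -0.38 between restricted and young rats without passing (adjusted p = 0.065). Myh4, a defining fast myosin, was well above background on 0 of 12 arrays. Myh2, another myosin of the 5, was so on 1 of 4 young, 3 of 4 restricted and 3 of 4 freely fed old arrays. The part of such cells in the muscle results was not tested. The count of 5 fell to 2 without young replicate 2, restricted replicate 1, 2 or 3 or with spike-in scaling, and to 3 without young replicate 3 or restricted replicate 4.

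Of 47 genes of mitochondrial respiration, 43 had a lower mean in restricted rats, 4 of them past the threshold (beside 5.99% of all genes lower), and the median was -0.10, -0.05 with quantile scaling and -0.02 with spike-in scaling (old freely fed against young, 8 lower, median -0.14). Cox6a2, the cytochrome oxidase subunit of heart and skeletal muscle, fell most, from -1.78, -1.46, -0.77 and -1.61 to -3.48, -3.53, -3.93 and -3.34 (log2 difference -2.16 ± 0.21 SE, adjusted p = 0.00088). Old freely fed rats lay between, at -0.98 from young (adjusted p = 0.036), and restricted differed from them by -1.18 (adjusted p = 0.015). Ppargc1a, a coactivator that drives mitochondrial biogenesis, read -5.28, -5.28, -4.97 and -4.80 in young and -5.85, -5.85, -6.03 and -5.94 in restricted animals (log2 difference -0.84 ± 0.13 SE, adjusted p = 0.0051). Its difference between freely fed old and young rats was -0.68 (adjusted p = 0.026). Cox6c and Cox6a1, subunits found in most tissues, fell by 0.22 (adjusted p = 0.013) and 0.16 (adjusted p = 0.031), and both calls ended with median centring, with normexp and quantile scaling and with spike-in scaling, which left 2 of the 4. That of Cox6a1 also ended with quantile scaling or normexp, with the young and restricted arrays alone, and without young replicate 1 or 2 or restricted replicate 1, 2 or 3.

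Nerve and glial genes were lower for 5 of 24 members and higher for 0 (median -0.26), beside 5.99% and 3.19% of all genes. Alkal2, a ligand of the Alk and Ltk receptors, read -3.63, -2.94, -3.19 and -3.84 in young and -5.42, -5.63, -5.70 and -6.27 in restricted animals, 5.13-fold lower (log2 difference -2.36 ± 0.24 SE, adjusted p = 0.00096). The gene differed by -0.55 between freely fed old and young rats (adjusted p = 0.19) and by -1.81 between restricted and freely fed old rats (adjusted p = 0.0041). Nefl and Nefm, the light and medium neurofilament chains of axons, fell by 1.41 (adjusted p = 0.0043) and 1.30 (adjusted p = 0.012), and Stmn2, a protein of growing axons, by 1.12 (adjusted p = 0.019). Nefl read -1.44, -0.82, -0.70 and -0.97 in young and -2.50, -2.26, -2.62 and -2.17 in restricted animals, and none of the 4 genes overlapped. In old freely fed rats the differences from young were -0.84 for Nefl (adjusted p = 0.053) and -1.02 for Stmn2 (adjusted p = 0.044). The nerve markers summed to 2.15 to 3 in young, 1.06 to 1.62 in restricted and 1.15 to 1.94 in freely fed old animals, and the Schwann cell markers to 0.561 to 0.707, 0.421 to 0.507 and 0.501 to 0.634. The Stmn2 call ended without young replicate 2, and the count stayed between 4 and 7 without any 1 animal.

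Of 36 bladder receptors and sensory channels, 3 were lower and 5 higher, beside 5.99% and 3.19% of all genes. Chrm2 and Chrm3, the muscarinic receptors of the bladder, were both lower. Chrm2 read -1.48, -1.45, -1.65 and -1.21 in young and -2.06, -2.15, -2.31 and -2 in restricted animals (log2 difference -0.69 ± 0.10 SE, adjusted p = 0.0034). Chrm3, which carries most of the contraction, fell from 1.37, 1.02, 1.04 and 1.08 to 0.55, 0.60, 0.42 and 0.76 (log2 difference -0.54 ± 0.10 SE, adjusted p = 0.0084). Neither gene had overlapping groups. Adra1d, an alpha1 adrenergic receptor, was 2.01-fold lower, at -0.52, -0.52, -0.60 and -0.62 in young and -1.33, -1.56, -2 and -1.38 in restricted animals (adjusted p = 0.0025). Freely fed old rats differed from young by -0.36 for Chrm2 (adjusted p = 0.066), -0.52 for Chrm3 (adjusted p = 0.024) and -0.23 for Adra1d (adjusted p = 0.33), and restricted from freely fed old rats by -0.33 (adjusted p = 0.094), -0.02 (adjusted p = 0.91) and -0.78 (adjusted p = 0.013). The purine receptor P2ry14 rose by 0.38 (adjusted p = 0.0098), and by 0.42 in freely fed old rats (adjusted p = 0.016). The sensory channels Trpa1 and Trpv4 rose by 0.68 (adjusted p = 0.02) and 0.33 (adjusted p = 0.029), the angiotensin receptor Agtr1a by 0.34 (adjusted p = 0.016), and these 3 were named after their values were seen. The fifth, the acid-sensing channel Asic1, also named afterwards, was not well above background on any young array and was at least 1.19-fold higher. This bound divides the brighter group's mean by a stand-in for the dimmer group, which on each array is the dim gene's reading or, if greater, the dimmest reading that counted as well above background. Asic1 had an adjusted p of 0.016, and the same bound is used wherever "at least" is written. The bound is a minimum only under the background correction reported. With normexp the log2 difference fell short of the bound for most such genes, as for Rnase2 (-1.76 against -3.05) and Bmerb1 (0.48 against 1.06). It did not for Cldn3 (0.80 against 0.77) or Lrrc15 (0.33 against 0.16). The count of 5 fell to 3 without young replicate 1 or restricted replicate 3, and spike-in scaling ended the call of Chrm3.

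**Figure D5:**
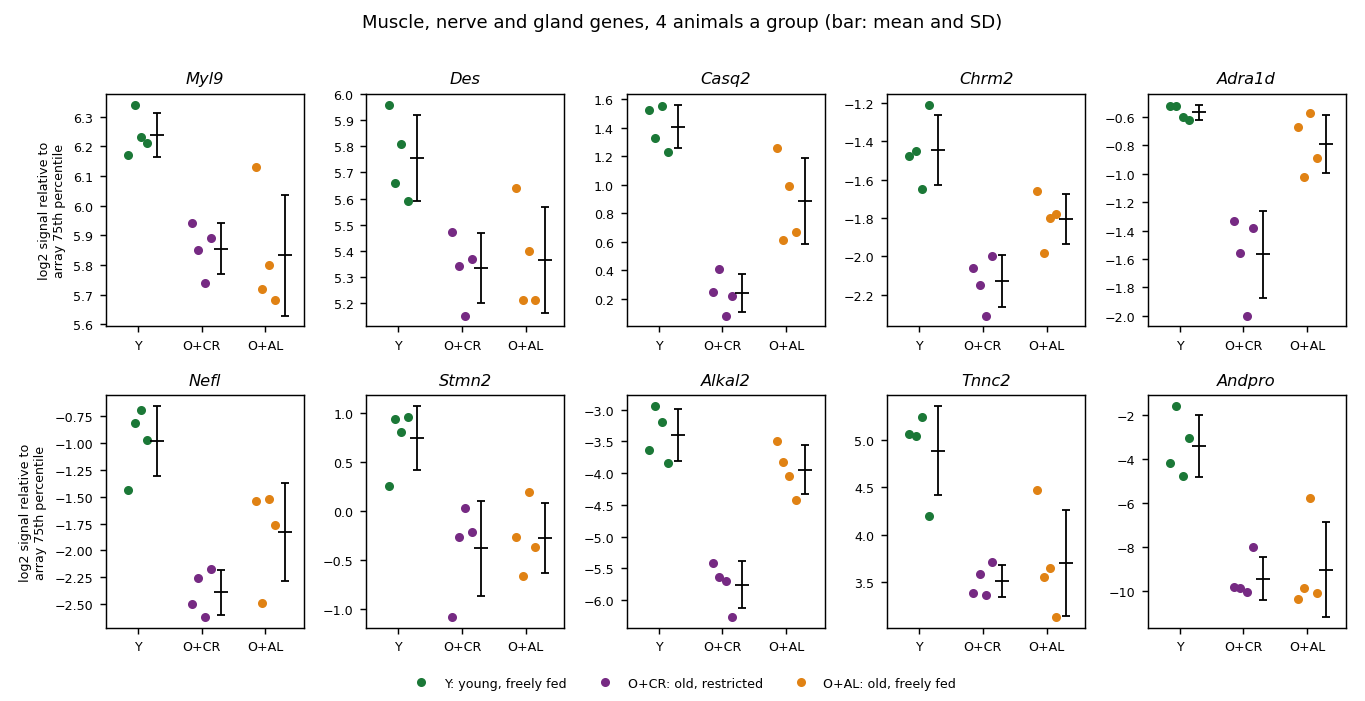
Muscle, receptor, nerve and gland genes by animal. The y axis is the level (log2, relative to the array's 75th percentile), each point is 1 of 4 animals a group, and the bar is the mean and SD. Restricted animals (purple) lie below young animals (green) in each panel, and freely fed old animals (orange) lie near the restricted ones for Myl9, Des, Stmn2, Tnnc2 and Andpro and nearer the young ones for Alkal2 and Adra1d.

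Genes of the male accessory glands, which lie against the bladder neck, had the largest falls of all. Andpro, an androgen-regulated prostate protein, read -4.20, -1.59, -4.77 and -3.06 in young and -9.81, -9.87, -10.01 and -7.99 in restricted animals, and was well above background on 4 of 4 young and 0 of 4 restricted arrays. It was at least 18.4-fold lower (adjusted p = 0.0058) as processed here, a bound of -4.2 on the log2 scale, while normexp gave a difference of -2.46. Scgb1d2 and Scgb1d4, secreted uteroglobin-like proteins, were at least 21.4-fold and 17.9-fold lower (adjusted p = 0.04 and 0.039). The kallikreins Klk1c8, Klk1c2 and Klk1, serine proteases of glands, fell by 1.97, 1.63 and 1.43 (adjusted p = 0.0038, 0.0053 and 0.0064). Of 8 listed members 5 fell (Andpro, Scgb1d2 and the 3 kallikreins, beside 5.99% of all genes), with 0 higher and a median of -1.53, and 2 fell when only probes well above background on all arrays were kept. These families hold near-identical copies, so which copy a probe reads is uncertain. The young animals themselves ranged from -4.77 to -1.59 for Andpro. The 4 defining gland markers summed to 0.0542 to 0.383 in young, 0.00742 to 0.0125 in restricted and 0.00535 to 0.0218 in freely fed old animals, and Pbsn, Svs4 and Svs5 were well above background on 0 of 12 arrays. The part of gland tissue in other results was not tested. In freely fed old rats Andpro was well above background on 1 of 4 arrays. There Klk1c8, Klk1c2 and Klk1 differed from young by -1.62, -1.40 and -1.24 (adjusted p = 0.022, 0.024 and 0.026). The calls of Scgb1d2 and Scgb1d4 ended without young replicate 1, 2 or 4 or restricted replicate 1, 2 or 3, with normexp, with the block and with spike-in scaling, and that of Scgb1d4 also without restricted replicate 4.

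In the urothelium the 4 uroplakins differed by -0.03 to 0.04 and did not pass, and 6 markers of the layer summed to 268 to 290 in young and 271 to 284 in restricted animals. Within the list, 6 of 35 members were higher and 1 lower (median 0.14), beside 3.19% and 5.99% of all genes. Krt5, the keratin of basal cells, read 0.72, 0.50, 0.59 and -0.03 in young and 1.61, 1.49, 1.24 and 1.46 in restricted animals, 2.01-fold higher (log2 difference 1.01 ± 0.15 SE, adjusted p = 0.0032). Old freely fed rats differed from young by 0.66 (adjusted p = 0.036) and restricted from freely fed old rats by 0.34 (adjusted p = 0.21). Cldn3, a tight junction claudin, read -9.10, -9.06, -9.29 and -9.18 in young, where it was not well above background, and -5.60, -6.22, -7.14 and -6.08 in restricted animals, at least 1.7-fold higher (adjusted p = 0.0022). Cldn3 was also higher in freely fed old than in young rats (adjusted p = 0.0084), and the old groups differed by 0.04 (adjusted p = 0.96). Scnn1g, a subunit of the epithelial sodium channel, and Klf5, a transcription factor of epithelia, rose by 0.28 and 0.33 (adjusted p = 0.013 each). Aqp3 and Cldn4, a water channel and a claudin, rose by 0.38 and 0.25, and Tp63, the regulator of basal cells, fell by 0.32 with overlapping groups (adjusted p = 0.039), these 3 being named after their values were seen. Quantile scaling gave 10 higher and 0 lower, and the Tp63 call also ended with other settings and without young replicate 1, 2 or 4 or restricted replicate 1, 2 or 3.

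The largest rises included genes outside the lists. Krt6c, a keratin of activated epithelium, read -2.15, -2.72, -3.65 and -4.67 in young and -1.16, -0.60, -0.94 and -0.64 in restricted animals (log2 difference 2.46 ± 0.49 SE, adjusted p = 0.014), and 3.77 higher in freely fed old than in young rats (adjusted p = 0.0069). Its other probes gave 1.35 and 2.32, and near-identical keratin copies make the copy uncertain. Tff2, a secreted trefoil peptide, was at least 3.26-fold higher (adjusted p = 0.0019). Sult1b1, a sulfotransferase, rose by 1.59 (adjusted p = 0.024), a call that ended without young replicate 2 or restricted replicate 3. Tp73, a transcription factor, was at least 1.93-fold higher (adjusted p = 0.011), a call that ended with normexp. Cpeb1, which controls the poly(A) tails of messenger RNAs, had the smallest adjusted p of the largest rises, at -4.30, -4.92, -4.81 and -4.64 in young and -3.18, -2.90, -2.92 and -2.69 in restricted animals (log2 difference 1.74 ± 0.13 SE, adjusted p = 0.00023). Ntsr1, a neurotensin receptor, rose by 1.94 (adjusted p = 0.0063), and Mab21l4 by 1.88 (adjusted p = 0.0013, well above background on 3 of 4 young arrays; 0.91 with normexp). Agtr1b, the second rodent type 1 angiotensin receptor, was higher at an adjusted p of 0.0012, with 1 of 4 young arrays well above background, so no fold is given. Bmerb1 was at least 2.08-fold higher (adjusted p = 0.00096), and Nt5c1b, Drgx and Lrrc15 at least 1.98-fold, 1.82-fold and 1.12-fold higher (adjusted p = 0.02 each). The call of Nt5c1b ended without restricted replicate 3, that of Drgx without restricted replicate 1 or 3, and that of Lrrc15 without restricted replicate 1 or with normexp. Scgb1c1 was at least 1.65-fold higher (adjusted p = 0.047) with overlapping groups. Slc5a5, the iodide transporter, was at least 2.52-fold higher by 1 probe (adjusted p = 0.037) and differed by -0.06 by its other probe (adjusted p = 0.78), so its direction was not settled. The calls of Scgb1c1 and Slc5a5 ended without most single animals and under several settings. Freely fed old rats also lay above young rats for Cpeb1 by 1.26, Ntsr1 by 1.56 and Mab21l4 by 1.19 (adjusted p = 0.0029, 0.033 and 0.025). Tff2, Tp73 and Bmerb1, dim in young animals, passed there too (adjusted p = 0.043, 0.011 and 0.0028). Sult1b1, Agtr1b, Nt5c1b, Drgx, Lrrc15 and Scgb1c1 were higher there without passing (adjusted p = 0.065 to 0.29).

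Few immune genes passed the threshold, beside 3.19% of all genes higher and 5.99% lower. Of 29 T and NK cell genes, 1 was higher and 0 lower (median 0.23), beside 13 higher and a median of 1.16 in freely fed old against young rats, and 6 lower in restricted against freely fed old rats (median -0.83). Cd2, a T cell adhesion protein, rose from -6.33, -6.17, -5.98 and -5.99 to -5.47, -5.68, -5.20 and -5.77 (log2 difference 0.59 ± 0.15 SE, adjusted p = 0.038), against 1.21 in freely fed old rats (adjusted p = 0.0069). The Cd2 call ended without young replicate 1 or 2, restricted replicate 1, 2 or 3, with normexp or with the block. The T cell count was 4 without freely fed old replicate 2 and 2 without young replicate 4. Gzmb, a cytotoxic granzyme named after its values were seen, differed by 1.19 without passing (adjusted p = 0.33). The 3 Cd3 markers summed to 0.872 to 1.15 in young, 1.14 to 1.40 in restricted and 1.27 to 1.73 in freely fed old animals.

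Cytokines and chemokines had 4 of 33 members lower and 1 higher, beside 5.99% and 3.19% of all genes. Cxcl2, which draws neutrophils, read -3.19, -2.19, -2.73 and -2.43 in young and -5.72, -5.54, -5.17 and -4.68 in restricted animals, 6.26-fold lower (log2 difference -2.65 ± 0.48 SE, adjusted p = 0.0093). Freely fed old rats differed from young by -0.21 (adjusted p = 0.81), and restricted from freely fed old rats by -2.43 (adjusted p = 0.02). Ccl3, a macrophage chemokine, fell by 0.74 (adjusted p = 0.031) and Lta, lymphotoxin alpha, by 0.46 (adjusted p = 0.043). The gene that rose was Cxcl14, a chemokine of epithelia (0.38, named after its value was seen), a call that ended without any 1 young or restricted animal. Il10, an anti-inflammatory cytokine well above background on 2 of 4 restricted arrays, was lower at an adjusted p of 0.046. The calls of Il10 and Lta each ended without any 1 of 9 of the 12 animals, with normexp and with spike-in scaling. Rnase2, an eosinophil ribonuclease with close relatives, was well above background on 4 of 4 young, 4 of 4 freely fed old and 0 of 4 restricted arrays and at least 8.31-fold lower (adjusted p = 0.0042), a call that ended with normexp. Sirpb3, a myeloid receptor, read -6.59, -7.22, -6.69 and -7.11 in young and -9.73, -8.54, -8.79 and -8.70 in restricted animals (adjusted p = 0.0019), with 2 of 4 and 0 of 4 arrays well above background. The Sirpb3 difference shrank from -2.04 to -0.35 with normexp, so its size was not settled. Of the blood markers, Hbb and Alas2 summed to 24.1 to 48.8 in young and 17 to 26.1 in restricted animals, ranges that overlap. Hbb differed by -0.87 and Alas2 by -1.10 without passing (adjusted p = 0.098 and 0.23). In young replicate 4 Hbb read 4.58, within the restricted range of 4.08 to 4.70, and Cxcl2 read -2.43. The part of retained blood was not tested. The cytokine count of 4 fell to 1 without young replicate 2 or 4 or restricted replicate 1 and with spike-in scaling, and to 2 without restricted replicate 2 or 4, without freely fed old replicate 1 or 3 and with normexp.

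Other immune lists gave few calls, beside 3.19% of all genes higher and 5.99% lower. Interferon response genes had a median of 0.38 with 0 of 27 called in either direction (limma; 0 and 0 unadjusted), and 24 of 27 lay above 0. Without restricted replicate 3 the interferon median was 0.10. Oas1a, an antiviral enzyme of this list, ranged from -3.13 to -0.46 in restricted animals, with the high value in restricted replicate 3. MHC class II had 0 of 12 called (limma; 1 and 1 unadjusted), complement 0 of 21 (1 and 1 unadjusted), and granulocytes and mast cells 0 of 18 (limma; 5 lower and 0 higher unadjusted, median -0.38). Cx3cr1, the fractalkine receptor of macrophages, fell by 0.68 (adjusted p = 0.027) as the only called gene of 24 in the macrophage list, and Pax5, a B cell factor, by 0.56 (adjusted p = 0.031) as the only one of 13 in the B cell list. Ptges, a prostaglandin E synthase, and Tlr5, the flagellin receptor, rose by 0.35 (adjusted p = 0.0093) and 0.75 (adjusted p = 0.038). The calls of Cx3cr1, Pax5 and Tlr5 each ended without young replicate 1 and without restricted replicate 3, and each also ended without others.

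Detoxification enzymes had 9 of 40 members higher and 3 lower (median 0.20), beside 3.19% and 5.99% of all genes. In freely fed old against young rats 4 were higher and 2 lower (median 0.02). Adh7, an alcohol and retinol dehydrogenase of epithelia, read -1.02, -0.60, -0.81 and -0.65 in young and 0.02, 0.04, 0.02 and 0.27 in restricted animals, 1.81-fold higher (log2 difference 0.86 ± 0.11 SE, adjusted p = 0.0019). Ces2c, a carboxylesterase, rose by 0.71 (adjusted p = 0.0055) and Akr1b8, an aldo-keto reductase, by 0.44 (adjusted p = 0.0027). Both genes also rose in freely fed old rats, by 0.49 (adjusted p = 0.043) and 0.39 (adjusted p = 0.013). Ces1d, another carboxylesterase, fell from 2.81, 2.95, 2.85 and 2.35 to 1.36, 1.63, 0.88 and 1.93 (log2 difference -1.29 ± 0.20 SE, adjusted p = 0.0051), and Cyp2f4, a cytochrome P450, by 1.76 (adjusted p = 0.02). In freely fed old rats these differed from young by -0.97 (adjusted p = 0.034) and -1.65 (adjusted p = 0.043). These families have close copies that a probe may share. The higher count fell to 5 without young replicate 1 and 4 without restricted replicate 3, the lower count of 3 fell to 1 without restricted replicate 1 or 2, and the Cyp2f4 call ended without restricted replicate 1 or 2.

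Of 34 NRF2 and antioxidant genes, 7 were higher and 2 lower (median 0.05), beside 3.19% and 5.99% of all genes. Nqo1, a quinone reductase and a standard NRF2 target, read -1.44, -1.12, -1.46 and -1.29 in young and -0.51, -0.90, -0.91 and -0.82 in restricted animals (log2 difference 0.55 ± 0.13 SE, adjusted p = 0.026). Prdx6, a peroxiredoxin, and Nfe2l2, which encodes NRF2, rose by 0.24 (adjusted p = 0.024) and 0.21 (adjusted p = 0.036), and Sod3, the extracellular superoxide dismutase, fell by 0.30 (adjusted p = 0.029). Freely fed old rats differed from young by 0.24 for Nfe2l2 (adjusted p = 0.037), 0.31 for Nqo1 (adjusted p = 0.16), 0.04 for Prdx6 (adjusted p = 0.72) and -0.09 for Sod3 (adjusted p = 0.44). Sod1, Sod2, Cat, Gpx1 and Hmox1, the classical antioxidant enzymes, differed by -0.20 for Cat (adjusted p = 0.33) to 0.30 for Hmox1 (adjusted p = 0.48) and did not pass, and are named here after their values were seen. The count of 7 rested on few animals: it was 0 without restricted replicate 1, 1 without young replicate 1 or 2 or restricted replicate 3, 2 without young replicate 4 or restricted replicate 2, 4 without restricted replicate 4 or freely fed old replicate 1 or 3, 3 with normexp, 4 without the brightness trend and 1 with spike-in scaling. The lower count of 2 fell to 0 or 1 under most of these and with quantile scaling. Maob, a monoamine oxidase, rose by 0.36 (adjusted p = 0.023), the only call among 14 oxidant-producing genes, and that call ended without young replicate 1 or 2 or restricted replicate 2.

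Growth factors and hormone responses gave single genes. Igf1, insulin-like growth factor 1, read 4.44, 4.16, 4.29 and 3.88 in young and 3.49, 3.53, 3.6 and 3.57 in restricted animals, 1.57-fold lower (log2 difference -0.65 ± 0.11 SE, adjusted p = 0.0082), with -0.69 by its second probe. It differed by -0.47 in freely fed old against young rats (adjusted p = 0.045), and by -0.18 between the old groups (adjusted p = 0.41). Fst, follistatin, which binds activin, fell by 1.14 (adjusted p = 0.0034), against -0.07 in freely fed old rats (adjusted p = 0.83) and -1.07 between the old groups (adjusted p = 0.0072). The Wnt ligands Wnt4, Wnt2b and Wnt10a rose by 0.73, 0.64 and 0.53 (adjusted p = 0.0095, 0.0031 and 0.0064), so that 3 of 36 genes of TGF-beta, BMP and Wnt signals were higher and 1 lower, beside 3.19% and 5.99% of all genes. Foxs1, a forkhead factor, fell from -0.62, -2.03, -2.22 and -2.86 to -3.83, -4.02, -3.81 and -4.57 (log2 difference -2.12 ± 0.38 SE, adjusted p = 0.0093), against -0.44 in freely fed old rats (adjusted p = 0.5). Lpl, lipoprotein lipase, fell by 0.71 (adjusted p = 0.0057) where it rose by 0.50 in freely fed old rats (adjusted p = 0.04), and restricted differed from freely fed old rats by -1.21 (adjusted p = 0.0019). Its list of 19 adipocyte markers had 1 lower (beside 5.99% of all genes) and 0 higher, and 3 adipocyte markers summed to 0.255 to 0.699 in young and 0.0167 to 0.625 in restricted animals. Spike-in scaling ended the calls of Igf1 and Lpl.

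Among glucocorticoid responsive genes 3 of 18 were higher and 1 lower, beside 3.19% and 5.99% of all genes. Fkbp5, a chaperone of the glucocorticoid receptor and one of its strongest targets, read 0.22, 0.02, 0.15 and 0.77 in young and 1.66, 1.91, 0.93 and 1.28 in restricted animals, 2.22-fold higher (log2 difference 1.15 ± 0.27 SE, adjusted p = 0.026). Between the old groups Fkbp5 differed by 1.24 (adjusted p = 0.032). Sgk1 and Tsc22d3, further targets, rose by 0.34 (adjusted p = 0.029) and 0.44 (adjusted p = 0.044). The higher count fell to 0 without young replicate 1, 2 or 3 or restricted replicate 1, and to 1 without restricted replicate 2, with the block or with spike-in scaling. Cdkn1a, the cell cycle inhibitor p21, which belongs to this list and to the senescence list, fell by 0.34 (adjusted p = 0.024), with -0.09 by its second probe (adjusted p = 0.67). In the senescence list 4 of 18 were lower and 0 higher, among them Cdkn2c by 0.51 (adjusted p = 0.009) and Lmnb1, a nuclear lamin, by 0.50 (adjusted p = 0.024). This count fell to 1 without young replicate 1 or restricted replicate 2 or 3, to 2 with quantile scaling or all probes averaged and to 0 with spike-in scaling. Cell cycle genes had a median of -0.46 with 0 of 22 called (limma; 2 lower and 0 higher unadjusted), and Prc1, a protein of dividing cells, read -2.45, -2.15, -2.38 and -4.12 in young against -4.51 to -4.12 in restricted animals (adjusted p = 0.092).

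Matrix and stromal genes moved in few members. Of 25 collagens and matrix genes 2 were lower and 1 higher, beside 5.99% and 3.19% of all genes, and the median was -0.16 (-0.09 without young replicate 1, -0.08 with spike-in scaling): Col5a3 and Col4a1, a fibrillar and a basement membrane collagen, fell by 0.68 (adjusted p = 0.012) and 0.51 (adjusted p = 0.02), and Thbs2, a matricellular protein, rose by 0.38 (adjusted p = 0.021). Mmp3, the stromelysin, read -6.65, -5.71, -5.91 and -5.86 in young and -4.54, -4.24, -4.90 and -5.00 in restricted animals, 2.57-fold higher (log2 difference 1.36 ± 0.21 SE, adjusted p = 0.0043). It rose by 1.76 in freely fed old rats (adjusted p = 0.0049). Mmp15, a membrane-bound protease, fell by 0.60 (adjusted p = 0.029), and Bmp1, which trims procollagen, by 0.33 (adjusted p = 0.022). Fibroblast genes had 4 of 20 lower and 1 higher, with Pi16, a marker of adventitial fibroblasts, down by 0.47 (adjusted p = 0.019) and Thy1 up by 0.45 (adjusted p = 0.027). Of 20 vessel genes 2 were lower, the endothelial adhesion proteins Cdh5 by 0.35 (adjusted p = 0.02) and Esam by 0.30 (adjusted p = 0.037). All these calls except those of Col5a3 and Mmp3 ended without restricted replicate 3. Others that ended calls here were restricted replicate 2 for Mmp15, Bmp1, Pi16, Thy1 and Esam and young replicate 2 for Col4a1, Bmp1 and Pi16. The fibroblast count of 4 fell to 0 without young replicate 2 or restricted replicate 2 or 3 and to 1 or 2 with most other settings.

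Lists of fasting and stress held few called genes, beside 3.19% of all genes higher and 5.99% lower. Bdh1, which interconverts ketone bodies, rose from -2.78, -2.77, -2.66 and -2.77 to -2.42, -2.38, -2.18 and -2.19 (log2 difference 0.45 ± 0.07 SE, adjusted p = 0.0052), as 1 of 2 higher and 0 lower among 25 genes of fatty acid oxidation and ketone bodies. Herpud1, an endoplasmic reticulum stress protein, rose by 0.34 (adjusted p = 0.003), against -0.08 in freely fed old rats (adjusted p = 0.33) and 0.42 between the old groups (adjusted p = 0.0019). Derl3 and Asns, a degradation factor and asparagine synthetase, rose by 0.42 and 0.24 (adjusted p = 0.025 and 0.029), giving 3 of 24 higher and 0 lower, and both calls ended without restricted replicate 2. Of 25 genes of gluconeogenesis and nutrient sensing 2 were higher and 1 lower, all 3 ended by several single animals. Heat shock genes had 0 of 18 called (limma; 2 lower and 0 higher unadjusted). Immediate early genes had 0 of 22 called (limma; 2 higher and 4 lower unadjusted, median -0.23), and Atf3, a stress-induced factor, read 1.73, 1, 0.72 and 0.28 in young and -1.23, -1.21, -0.92 and -0.02 in restricted animals without passing (adjusted p = 0.06).

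Detection itself differed between the groups. Well above background on all 4 restricted and 0 of 4 young arrays were 208 genes, of which 51 were called, and on all 4 young and 0 of 4 restricted arrays 9 genes, of which 8 were called. Of all genes tested 9.18% were called. Both sets were picked by detection in 1 group only, which favours a call, so their calls are no separate result. The lowest signal counted as well above background was -7.14 to -6.89 on young and -7.73 to -7.46 on restricted arrays, and negative control spots averaged -9.18 to -8.94 and -9.81 to -9.54. The limit of detection was thus higher on the young arrays, and these values move with the 208 genes. Of the 9, Or51f1g, an olfactory receptor, was at least 2.06-fold lower (adjusted p = 0.0023), and freely fed old rats differed from young by 0.01 (adjusted p = 0.98). Rpl39l1, a ribosomal protein gene with near-identical copies, was well above background on 1 of 4 restricted arrays and lower at an adjusted p of 0.035, a call that ended without most single animals of the compared groups.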

How the data were processed

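Total RNA of 12 bladders was labelled with Cy3 and hybridised to 1-colour Agilent rat arrays, 1 animal an array. The deposited values were spot intensities, background-subtracted and detrended within each array by Agilent Feature Extraction 10.7, per the submitters' processing notes and the file headers. The deposited series table equalled the processed signal in 100% of spots (relative tolerance 1e-06), so it was linear and unscaled, and was not used further.

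Log2 intensity was taken minus the 75th percentile of each array over 58717 non-control spots, and spots were averaged for each of 30367 probes, leaving out spots marked as outliers unless a probe had no other (91 averages). No spot was saturated (0 on every array). A probe counted as well above background on an array if more than 0.5 of its spots did. A probe had to meet this on all 4 arrays of any group (23089 did), and each gene was read from its brightest probe by mean signal, giving 20425 features, 12036 with a symbol. Symbols came from RefSeq accessions of the probes matched to a GRCr8 gene table (17998 probes, 59.3%), and the rest kept the name in the files.

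Tests used R 4.3 and limma 3.58: lmFit on 12 arrays and 3 groups, eBayes with a brightness trend (9 degrees of freedom from the residuals and 2.72 from the prior); tests were two-sided and Benjamini-Hochberg adjusted at 0.05. With 4 animals a group, the number of arrays limits the precision. Of 1069 symbols in 41 gene lists, 985 were on the array and 918 were tested. The lists, the comparison and the members were chosen with earlier results of these data known. Named genes were the 15 largest rises and 15 largest falls among called genes whose groups did not overlap, up to 4 called members of each list by adjusted p, up to 2 members by p where a list had none called, and up to 8 genes in each direction measured in 1 group only. Motifs were sought in 250 bases before each gene's start. On simulated data for this comparison over 20425 features, 66% of 1.5-fold, 88% of 2-fold and 98% of 3-fold and 4-fold changes were called. The simulation planted 50 genes at each fold and drew independent normal noise for each gene and array. It held no slide or array effect, so its rates need not hold for these data. Another 19 calls (9.79% of the calls) fell on features without a planted change, a larger share than the 0.05 aimed at. Freely fed old against young arrays, which held no planted change in the same simulation, gave 0 calls. Alternatives were other scalings, normexp (offset 50, on the median signal, since the mean signal was not in the columns used), other filters, probes, error models and arrays, a replicate block, and each animal left out. Over all genes, same-numbered young and restricted animals correlated at 0 to 0.05 in their deviations from the group mean. The numbers thus showed no pairing across genes as a whole. Single genes can still share an order, as did Dbp, which rose from replicate 1 to 4 in both groups, and this was not tested. Some genes that met the naming rule are not reported here.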

Additional observations from a re-analysis of the deposited data

Results flagged for a closer look

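In 20 of 274 sets of 4 animals (7.3%) 1 animal lay far from the other 3 by a test that chance passes in about 1 in 20 sets. Restricted replicate 4 was high for Andpro (-7.99 against -10.01 to -9.81), Rnase2 (-8.95 against -9.68 to -9.58), Tsc22d3 (1.65 against 1.13 to 1.18) and Adh7 (0.27 against 0.02 to 0.04), and low for Ces2c (-2.56 against -2.25 to -2.24). Restricted replicate 3 was low for Dhcr7 (-0.96), Pax5 (-1.72), Gsn (5.18) and Cd34 (-4.09). Restricted replicate 2 was low for Tlr5 (-5.97) and restricted replicate 1 for Cox6c (5.49 against 5.53). Young replicate 4 was low for Hba-a1 (5.35 against 6.17 to 6.32), Hbb (4.58 against 5.45 to 5.60) and Prc1 (-4.12 against -2.45 to -2.15). Young replicate 1 was high for Or51f1g (-6.09), Pax5 (-0.48) and Chrm3 (1.37), young replicate 2 for Scgb1c1 (-6.49) and young replicate 3 for Bdh1 (-2.65), and young replicate 3 was low for Tsc22d3 (0.67). For Chrm3, Bdh1, Dhcr7, Adh7 and Ces2c the groups did not overlap with these animals included.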

How the results depend on the processing

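Counts of genes higher and lower than in young rats (651 and 1223) stayed within 1.5 times under quantile scaling (827 and 880), median centring (678 and 871), normexp (468 and 870), other error models and most filters. Without a filter on dim probes 2478 were lower. Scaling on the spike-in controls, an alternative chosen after seeing the data, gave 293 higher and 166 lower, of which 448 were among the 1874 reported (23.9%), and its array offsets ranged from -0.026 to 0.176 in young and -0.148 to 0.129 in restricted arrays. The cause was not tested. With the animals left out in turn, higher genes ranged from 278 to 758 and lower genes from 459 to 1331. The replicate block gave 541 and 1263 and ended 15 calls among 124 named genes. Of those 124, 61 passed without any 1 animal and 49 passed in every alternative that was run. The only reversal was Slc5a5, at -0.056 when only probes well above background on all arrays were kept, which selects its other probe.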
